A study of Mus musculus with 6 samples.

Results

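Ccl3, Ccl4, Ccl5 and Xcl1 are 4 of the 47729 genes counted in CD4 T cells sorted from mouse spleen. They were listed by name because their level was reported to be highest in the ON cells, so their values in ON against OFF and in ON against WT are given below as a description with no test. Only OFF against WT, which that reason did not use, is tested for them. The genes were still chosen with earlier results of these data known, so these p-values are descriptive. All 4 passed the low-count filter, but Ccl3, Ccl4 and Xcl1 passed it only through OFF and ON libraries, for Xcl1 OFF 1, OFF 2 and ON 1. This limits their tests against WT. The choice held for Ccl3, Ccl4 and Ccl5, whose mean was highest in ON, and not for Xcl1, whose mean was 0.885 ± 0.108 CPM in OFF, 0.764 ± 0.799 CPM in ON and 0.207 ± 0.0458 CPM in WT (SD, n = 2). CPM here are gene counts divided by library size, with the size scaled by the trimmed mean of M values (TMM).

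The study asked how T cells that have recently left the thymus respond to Notch, and RNA of 6 libraries was sequenced, 2 in each of 3 groups. OFF cells came from RBPJind mice that drank doxycycline (Dox) for 3 weeks and then went 1 week without it, and the labels call them Notch unresponsive. ON cells came from RBPJind mice given Dox for 4 weeks, and the labels call them Notch responsive. WT cells came from wild type mice. OFF and ON cells were sorted as immature naive cells (CD3+CD4+CD25-CD45RBint) and WT cells as mature naive cells (CD3+CD4+CD25-CD45RBhi). All 6 samples carry the treatment label Dox, with no duration given for WT. OFF and ON thus share genotype and gate and differ in the last week of Dox, so effects of Dox itself and of Notch cannot be told apart, and WT differs from both in genotype and gate. The sources used here do not say which promoter or cell type drives the RBPJind construct, nor whether both samples of a group are from different animals. The p-values therefore describe the spread among these samples, which may be technical.

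Chemokines are small secreted proteins that guide the movement of leukocytes through G protein-coupled receptors. Ccl3 (MIP-1 alpha), Ccl4 (MIP-1 beta) and Ccl5 (RANTES) are CC chemokines, named for a pair of adjacent cysteines. Naive T cells make little of them, and antigen-experienced T cells and natural killer cells are known sources. Xcl1 (lymphotactin) is a C chemokine made by activated T cells and natural killer cells, and its receptor Xcr1 marks cross-presenting dendritic cells. RBPJ binds DNA and carries the signal of Notch receptors to their target genes.

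The stretches before the transcription start are shown for Ccl3 and Xcl1, the members whose RefSeq promoters were found. Each line gives 250 bases upstream of the RefSeq start on GRCm38.p6, read 5′ to 3′ on the minus strand, with matches to the searched motifs in capitals. RefSeq promoters of 2 of the 4 genes were found, and Ccl4 and Ccl5 are named only.
Ccl3, chr11:83649379-83649628: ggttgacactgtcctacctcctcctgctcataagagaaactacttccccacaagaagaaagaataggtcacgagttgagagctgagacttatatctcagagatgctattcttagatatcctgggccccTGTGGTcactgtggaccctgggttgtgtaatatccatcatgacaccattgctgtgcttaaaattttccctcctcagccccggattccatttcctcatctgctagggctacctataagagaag
Xcl1, chr1:164935523-164935772: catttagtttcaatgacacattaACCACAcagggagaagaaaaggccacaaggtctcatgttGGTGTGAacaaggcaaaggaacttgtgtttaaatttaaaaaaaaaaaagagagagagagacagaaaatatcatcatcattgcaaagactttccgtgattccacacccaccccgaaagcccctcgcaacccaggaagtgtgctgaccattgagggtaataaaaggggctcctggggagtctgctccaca
Binding motifs of 5 factor families were searched on both strands, and none of the matches found overlapped another. The RUNX core TGTGGT stood in both windows, starting 122 bases before the start of Ccl3 on the strand shown and, as ACCACA, 227 bases before that of Xcl1, and it is in 14.0% of 32851 promoter windows of this length. The T-box letters GGTGTGA stood in the Xcl1 window alone, 188 bases before the start, and are in 3.33% of windows. The RBPJ core TGGGAA, held by 21.6% of windows, the AP-1 letters TGANTCA, held by 6.75%, and the kappa B motif, held by 45.8%, were in neither. These letters describe the windows shown and no others.

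Ccl5 was the most abundant of the 4 in every library, and its 3 groups lay far apart. Ccl5 (ENSMUSG00000035042; GRCm38 chromosome 11, 83525778 to 83530518, minus strand, 3 exons) stood at 57.9 and 90.7 CPM in the OFF libraries, 268 and 254 CPM in the ON libraries, and 8.19 and 3.49 CPM in the WT libraries. These levels rested on 1002 and 1510 counts in OFF, 5248 and 5134 counts in ON, and 137 and 60 counts in WT. No groups overlapped, and each OFF library lay between the ON and the WT libraries. The log2 difference was -1.81 ± 0.30 (SE) for OFF against ON, 3.52-fold lower in OFF, and 5.49 ± 0.38 for ON against WT. Ccl5 remained 12.7-fold higher in OFF than in WT (log2 fold change 3.67 ± 0.37; adjusted p = 0.00243 by edgeR's quasi-likelihood test with Benjamini-Hochberg adjustment), higher in 2 of 2 OFF libraries. As background, 4.70% of the 15780 tested genes were called higher in OFF than in WT at an adjusted p under 0.05. Leaving out any library, another scaling or another test kept this call of Ccl5.

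Ccl3 (ENSMUSG00000000982; chromosome 11, 83647844 to 83649355, minus strand) is an attractant of monocytes and effector T cells. It stood at 2.43 and 8.41 CPM in OFF, 20.2 and 23.1 CPM in ON, and 0.120 and 0.0581 CPM in WT. The WT values were 2 counts and 1 count, so that Ccl3 was close to the limit of detection there, whereas ON had 395 and 467 counts. The 3 groups did not overlap, but the OFF libraries differed 3.47-fold between themselves, with 42 counts in OFF 1 and 140 in OFF 2, beyond their 95% counting intervals of 30.3 to 56.8 and 118 to 165.2. The log2 difference of OFF against ON was -2.01 ± 0.37, which is 4.02-fold lower in OFF. Summed over each group, ON had 245 times the Ccl3 of WT (95% counting interval 83.6 to 1191) and OFF had 60.6 times that of WT (20.4 to 297). These intervals cover counting error only. Between OFF and WT the fitted log2 fold change was 5.82 ± 0.91 (adjusted p = 0.00524, edgeR), higher in 2 of 2 OFF libraries. The call ended without WT 1 (adjusted p = 0.152), without WT 2 (0.115) and with limma-voom (0.0823), and the adjusted p over all alternatives lay between 1.77e-08 and 0.152.

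Ccl4 (ENSMUSG00000018930; chromosome 11, 83662584 to 83664683, plus strand), an attractant of T cells and monocytes, had the group order of Ccl3. It stood at 3.52 and 6.49 CPM in OFF, 21.6 and 17.7 CPM in ON, and 0.120 and 0 CPM in WT. WT had 2 counts in all, and 0 counts in WT 2, which allows up to 3 counts or 0.174 CPM (1-sided; the 2-sided 95% interval drawn in the plot of the 4 genes ends at 3.69 counts). The OFF libraries lay below both ON libraries and above both WT libraries, and differed 1.84-fold between themselves. OFF was 3.93-fold below ON (log2 difference -1.98 ± 0.29). Summed over each group, ON had 333 times the Ccl4 of WT (95% counting interval 91.8 to 2753) and OFF had 84.4 times that of WT (23.0 to 703). Between OFF and WT the fitted log2 fold change was 6.24 ± 0.76 (adjusted p = 9.57e-04, edgeR), higher in 2 of 2 OFF libraries, and the call held under every alternative run, with the highest adjusted p (0.0219) without WT 2. Without WT 1 its fitted log2 fold change of 9.51 was set against a single library with 0 counts and is no bound.

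Xcl1 (ENSMUSG00000026573; chromosome 1, 164931644 to 164935527, minus strand) was barely detected. It stood at 0.809 and 0.961 CPM in OFF, 1.33 and 0.198 CPM in ON, and 0.239 and 0.174 CPM in WT. ON 1, with 26 counts, was the highest library, while ON 2, with 4 counts, lay among the WT libraries, which had 4 and 3. The ON libraries thus differed 6.70-fold, and their 95% counting intervals of 17.0 to 38.1 and 1.09 to 10.2 counts did not overlap. OFF and ON both summed to 30 counts, and the ratio of OFF to ON was 1.17 (95% counting interval 0.682 to 2.01). Between OFF and WT the log2 fold change was 2.06 ± 0.94 and was not called (adjusted p = 0.236, edgeR), nor was it under any of the 14 alternatives that gave a value (adjusted p between 0.0669 and 0.512). Xcl1 also shares exon positions with an antisense gene model, Gm20743, which had at most 9 counts in a library, and since the counting is not said to use strand, reads of the pair cannot be told apart. The other 3 genes overlap no annotated gene.

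**Figure D1:**
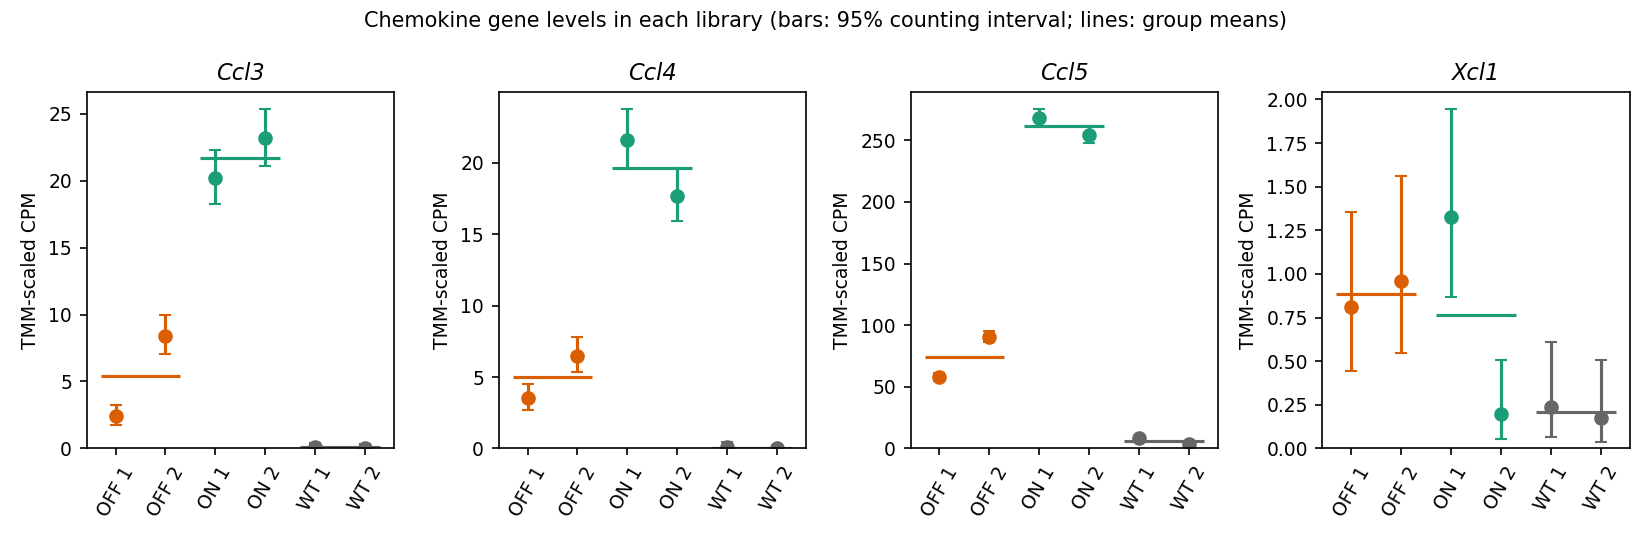
TMM-scaled CPM of the 4 chemokine genes in each of the 6 libraries (points), with the 95% counting interval (bars) and the mean of the 2 libraries of a group (lines). Ccl5 lies at 57.9 and 90.7 CPM in OFF, 268 and 254 CPM in ON, and 8.19 and 3.49 CPM in WT, Ccl3 and Ccl4 have the same order of groups, and the Xcl1 value of ON 2 lies among those of WT.

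The 3 CC genes varied together over the 6 libraries, with a Pearson r on log2(CPM + 0.5) of 0.992 for Ccl3 with Ccl4, 0.981 for Ccl3 with Ccl5 and 0.994 for Ccl4 with Ccl5. For Xcl1 r was between 0.525 and 0.587 with each of them. These values describe 6 libraries that fall into 3 groups, chosen for a shared pattern. Within ON the 3 CC genes were close, differing at most 1.22-fold between the 2 libraries. Some effector genes, picked after their values were seen, differed more between the ON libraries: Gzma (granzyme A) was 4.79-fold and Bhlhe40 2.64-fold higher in ON 1 than in ON 2.

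Levels of different genes can be compared per exon length, as RPKM (TMM-scaled CPM per kilobase of merged exons). Ccl5 stood at 77.4 ± 24.2 RPKM in OFF, 272 ± 10.2 in ON and 6.08 ± 3.47 in WT. Ccl3 stood at 7.08 ± 5.53, 28.3 ± 2.73 and 0.116 ± 0.0568 RPKM in OFF, ON and WT, and Ccl4 at 7.59 ± 3.18, 29.8 ± 4.21 and 0.0906 ± 0.128 RPKM (SD, n = 2). Ccl3 and Ccl4 therefore did not differ beyond their spread in any group, and Ccl5 lay above both. In the same unit Ccl5 was 19.0 and 8.61 times Ccl3 in the OFF libraries, 10.6 and 8.77 times in the ON libraries, and 54.7 and 47.9 times in the WT libraries, where Ccl3 rested on 3 counts in all. Ccl3, Ccl4 and Ccl5 together made up 91.2% and 93.4% of the summed RPKM of all 38 chemokine ligand genes looked up in the OFF libraries, 97.3% and 98.1% in the ON libraries, and 56.4% and 42.2% in the WT libraries.

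Of the other 34 chemokine ligand genes, 8 passed the low-count filter, and edgeR, DESeq2 and limma-voom each called 0 of them in all 3 comparisons. Before adjustment, edgeR's p was under 0.05 for 1 of them in OFF against ON, 3 in ON against WT and 2 in OFF against WT. Over all tested genes, the share called in either direction was 1.03% for OFF against ON, 14.8% for ON against WT and 6.83% for OFF against WT. Their summed level was 23.6 and 23.3 CPM in OFF, 21.6 and 20.6 CPM in ON, and 21.5 and 20.9 CPM in WT. Most of it was Ccl25, known as a thymic and gut chemokine, at 18.7 and 14.8 CPM in OFF, 12.1 and 13.6 CPM in ON, and 13.3 and 15.9 CPM in WT. Of the 8, Ccl22, Cxcl10 and Cxcl16 also had their highest mean in ON. Ccl22 stood at 0.116 and 0.361 CPM in OFF, 0.562 and 1.09 CPM in ON, and 0.299 and 0.0581 CPM in WT, far below Ccl3 and Ccl4 in ON. Ccl27a, after Ccl25 among the most abundant of the 8, stayed between 0.694 and 1.39 CPM. The 26 ligands that did not pass reached at most 0.718 CPM in any library.

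**Figure D2:**
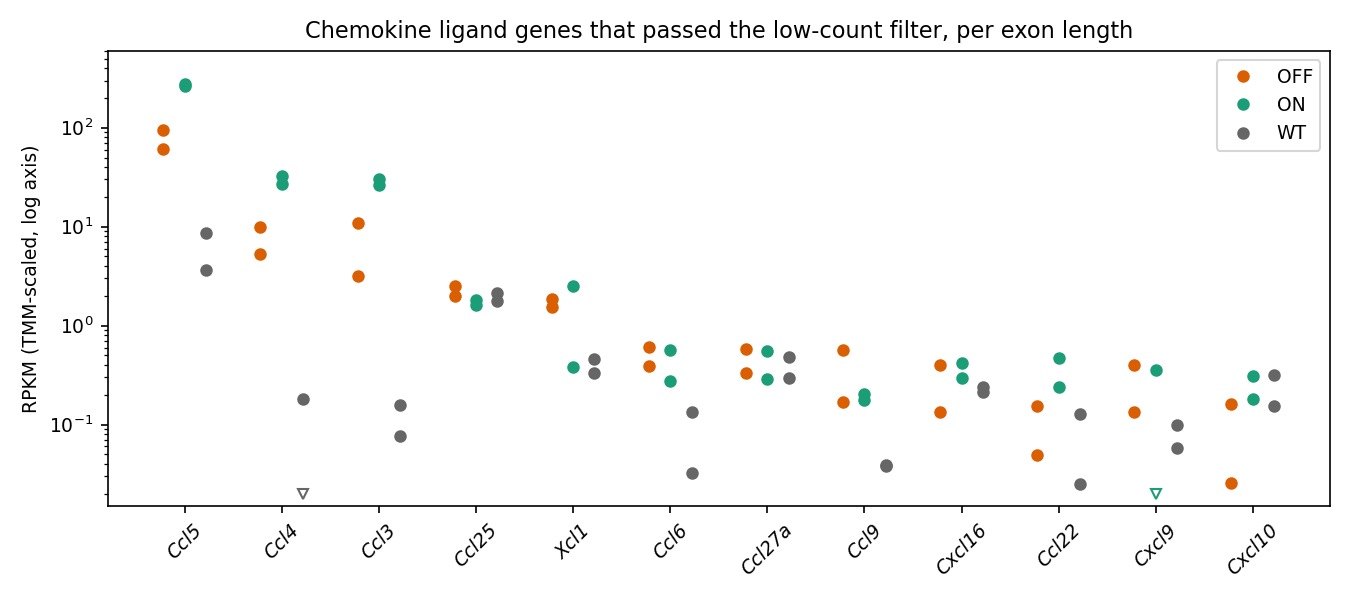
RPKM on a log axis of the 12 chemokine ligand genes that passed the low-count filter, 1 point for each library, with values of 0 drawn as open triangles at the bottom. Ccl5, Ccl4 and Ccl3 spread over the 3 groups with ON at the top, and the 8 other ligands and Xcl1 stay below Ccl3 and Ccl4 of the ON libraries.

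Ccl5, Ccl3 and Ccl4 lie in 1 cluster of CC chemokine genes on chromosome 11. The gap is 117.3 kb between Ccl5 and Ccl3 and 13.2 kb between Ccl3 and Ccl4. Ccl9 and Ccl6, which code for chemokines of myeloid cells and lie between Ccl5 and Ccl3, were not highest in both ON libraries. Ccl9 stood at 0.520 and 1.74 CPM in OFF, 0.613 and 0.545 CPM in ON, and 0.120 and 0.116 CPM in WT, and Ccl6 at 0.693 and 1.08 CPM in OFF, 1.02 and 0.496 CPM in ON, and 0.239 and 0.0581 CPM in WT. Neither was called in any comparison by the main test, the adjusted p for OFF against WT being 0.0555 for Ccl9 and 0.0988 for Ccl6 (edgeR). Without OFF 1, Ccl9 was called in that comparison.

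Heatr9, the annotated gene next to Ccl5 on its other side, had the order of the CC genes. It lies 3.6 kb from Ccl5, on the same strand and beyond the end of its transcript. Heatr9 stood at 1.27 and 1.5 CPM in OFF, 6.13 and 4.76 CPM in ON, and 0.778 and 0.523 CPM in WT, with no overlap between groups. It was lower in OFF, against ON, by a log2 fold change of -1.97 ± 0.33 (adjusted p = 0.0295 by edgeR; 0.425% of tested genes were called lower). In ON it was higher than in WT (3.05 ± 0.38, adjusted p = 0.00136), and OFF against WT gave 1.09 ± 0.50 and no call (adjusted p = 0.236). The call between OFF and ON ended in 6 of 15 alternatives, among them without OFF 1, OFF 2, WT 1 or WT 2 (adjusted p up to 0.130), and that between ON and WT held in all 15. Wfdc17, on the far side of Ccl4, and Dpt and Tbx19, on either side of Xcl1, did not pass the low-count filter.

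**Figure D3:**
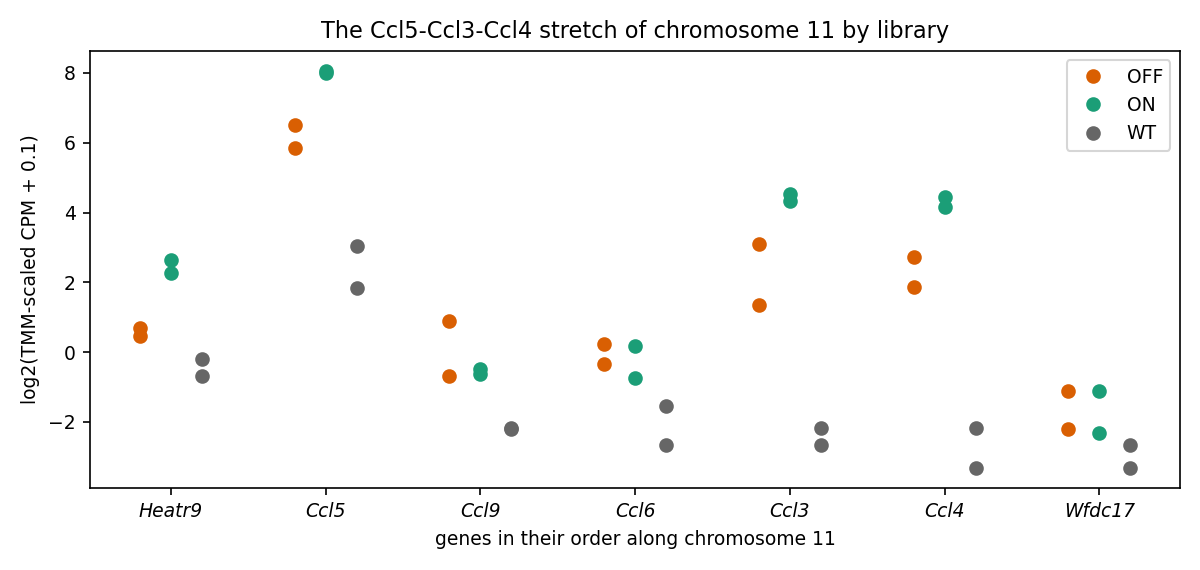
log2(TMM-scaled CPM + 0.1) of genes in their order along chromosome 11, 1 point for each library; genes with under 15 counts in all are left out, and distances are not to scale. Heatr9, Ccl5, Ccl3 and Ccl4 show ON above OFF and OFF above WT, whereas Ccl9 and Ccl6 between them do not separate ON from OFF.

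Of 5 genes looked up as receptors or scavengers of these chemokines, 2 passed the filter. Between OFF and ON, edgeR, DESeq2 and limma-voom each called 0 of these (1 by edgeR before adjustment), and 1 was called between OFF and WT. Ccr3, a receptor of Ccl5 known from eosinophils, was low, at 1.62 and 2.34 CPM in OFF, 1.18 and 0.793 CPM in ON, and 0.299 and 0.233 CPM in WT. It was higher in OFF than in WT (log2 fold change 2.86 ± 0.56, adjusted p = 0.0180), a call that ended without OFF 2, WT 1 or WT 2 (adjusted p up to 0.129). Ccrl2, a receptor-like protein that does not signal in the usual way, was not called in any comparison. Xcr1, the receptor of Xcl1, had 0 and 1 counts in OFF, 0 and 0 counts in ON, and 5 and 2 counts in WT. Ccr1, which binds Ccl3 and Ccl5, had at most 8 counts in a library, and the scavenger Ackr2 at most 7.

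Of 12 genes that carry or restrain chemokine receptor signals, 2 were called higher in ON than in WT, 1 in OFF than in WT and 0 between OFF and ON (2 before adjustment; DESeq2 and limma-voom also called 0). Rgs16, a brake on G protein signals, stood at 4.79 and 7.45 CPM in OFF, 11.3 and 10.2 CPM in ON, and 0.359 and 0.756 CPM in WT. It had the group order of the CC ligands and was higher than in WT in both ON (log2 fold change 4.25 ± 0.39, adjusted p = 2.77e-04; 9.68% of tested genes were called higher) and OFF (3.43 ± 0.43, adjusted p = 0.00225). Rgs1, a related brake, was higher in ON than in WT (2.44 ± 0.47, adjusted p = 0.0197), a call that ended without OFF 1, OFF 2, WT 1 or WT 2 (adjusted p up to 0.193). The most abundant members, Dock2, Gnai2, Rac2 and Grk6, were not called.

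Many transcription factors known to act on effector genes of T cells were higher in the RBPJind groups than in WT. Of 18 tested, 10 were called higher in ON than in WT, 7 higher in OFF than in WT, and 1 lower in OFF than in ON; none was called in the other direction. Over all tested genes these shares were 9.68%, 4.70% and 0.425%. The median log2 fold change was -0.16 for OFF against ON, 0.75 for ON against WT and 0.50 for OFF against WT, beside 0.00, -0.02 and 0.01 over all tested genes. The gene called between OFF and ON was Rbpj, which is induced in these mice, at 29.8 and 31.7 CPM in OFF, 98.2 and 79.6 CPM in ON, and 36.1 and 35.3 CPM in WT (log2 fold change -1.53 ± 0.14, adjusted p = 0.00195). Rbpj is also among the 10 called higher in ON than in WT. Without WT 2 the counts fell to 5 for ON against WT and 2 for OFF against WT, and without OFF 2 that for OFF against WT was 3.

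The T-box and interferon regulatory factors of the list were not called between OFF and ON. Eomes, a T-box factor of effector and memory cells, stood at 41.4 and 47.4 CPM in OFF, 70.8 and 43.1 CPM in ON, and 7.42 and 5.41 CPM in WT. It was higher than in WT in ON (log2 fold change 3.15 ± 0.26, adjusted p = 1.70e-04) and in OFF (2.79 ± 0.26, adjusted p = 5.74e-04), while OFF and ON overlapped (-0.36 ± 0.22, adjusted p = 0.411). Irf4, induced by T cell receptor signals, was also higher in ON (2.11 ± 0.22, adjusted p = 5.38e-04) and OFF (2.0 ± 0.22, adjusted p = 0.00116) than in WT, and its difference between OFF and ON was -0.11 ± 0.20. Tbx21 (T-bet) was higher in ON than in WT (2.21 ± 0.48, adjusted p = 0.0247), a call that ended with no filter and without ON 1, ON 2 or WT 2 (adjusted p up to 0.0727), and in OFF its log2 fold change of 1.72 ± 0.49 was not called (adjusted p = 0.0878).

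Other factors called higher than in WT were Bhlhe40, Prdm1, Batf, Zeb2 and Nfatc1, in both ON and OFF, and Id2, in ON. Of 15 alternatives, the call of Id2 ended in 9 (adjusted p up to 0.280), those for OFF against WT in 7 for Batf, 6 each for Prdm1 and Bhlhe40 and 3 for Nfatc1, those for ON against WT in 6 for Nfatc1 and 5 for Bhlhe40, and both calls of Zeb2 without WT 2. Prdm1 (Blimp-1) stood at 11.4 and 18 CPM in OFF, 36.1 and 20.9 CPM in ON, and 5.44 and 5.23 CPM in WT, and its difference between OFF and ON was not called (-0.96 ± 0.28, adjusted p = 0.127). Klf13, a factor for late Ccl5 expression in T cells, was not called in any comparison (log2 fold change 0.31 for OFF against ON), nor were Irf1, Runx3, Rela, Rel and Nfkb1.

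Proteins that bind mRNAs of cytokines and chemokines and shorten their life were called in both directions. Of 8 such decay genes, OFF against ON and OFF against WT each gave 1 that was higher in OFF, while ON against WT gave 1 higher and 2 lower. Relative to WT, Zfp36l2 was lower in ON (log2 fold change -1.01 ± 0.17, adjusted p = 0.00525), at 344 and 239 CPM in OFF, 176 and 171 CPM in ON, and 369 and 328 CPM in WT. Rc3h1 (Roquin-1) was lower too (-0.69 ± 0.11, adjusted p = 0.00427; 5.16% of tested genes were called lower in ON), and Hnrnpd (AUF1) was higher (0.66 ± 0.11, adjusted p = 0.00536). Zfp36l1 was higher in OFF than in ON (0.68 ± 0.13, adjusted p = 0.0442; 0.602% of tested genes were called higher), a call that ended in 9 of 15 alternatives. Its call in OFF against WT (0.50 ± 0.13, adjusted p = 0.0470; 4.70% of tested genes were called higher) also ended in 9 of 15, among them both other scalings, and the count of that comparison ran between 0 and 2 with a library left out. Cnot1, among the most abundant of the list, was not called. Without WT 1, 0 of the 8 were called between ON and WT, and without WT 2 there was 1.

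Of 8 tested genes that store and release effector proteins, 4 were called higher in ON than in WT, 1 higher in OFF than in WT and 0 between OFF and ON (2 before adjustment; DESeq2 and limma-voom also called 0), beside 9.68% of all tested genes higher in ON than in WT and 4.70% higher in OFF. Srgn codes for serglycin, the granule proteoglycan that binds chemokines, and stood at 96.0 and 149 CPM in OFF, 217 and 142 CPM in ON, and 89.8 and 84.2 CPM in WT (ON against WT 1.05 ± 0.24, adjusted p = 0.0258). Rab27a, Stx11 and Vamp8, which act in vesicle release, were the other 3 called in ON, and Stx11 was the one called in OFF. Unc13d and Lamp1, among the most abundant, were not called. Without WT 1, 0 of the 8 were called between ON and WT, without WT 2 there was 1, and without ON 1 there were 2. For OFF against WT there were 0 without OFF 2, WT 1 or WT 2, and 3 without ON 1 or ON 2.

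Of 7 tested cytokine genes of effector T cells, 4 were higher in ON than in WT, 3 higher in OFF than in WT and 2 lower in OFF than in ON, beside 9.68%, 4.70% and 0.425% of all tested genes. Il10, an anti-inflammatory cytokine, stood at 1.68 and 2.46 CPM in OFF, 14.3 and 9.86 CPM in ON, and 0.179 and 0.233 CPM in WT (OFF against ON -2.54 ± 0.30, adjusted p = 0.00640). Il21, a helper cytokine for B cells, was the other one lower in OFF (-2.27 ± 0.36, adjusted p = 0.0251), a call that ended without OFF 1. Ifng, the cytokine often made together with Ccl3, Ccl4 and Ccl5, was at 4.22 and 9.13 CPM in OFF, 17.7 and 9.91 CPM in ON, and 1.14 and 0.640 CPM in WT, and its difference between OFF and ON was not called (-1.05 ± 0.38, adjusted p = 0.178). Tnfsf10 (TRAIL), a death receptor ligand, stood at 31.7 and 42.1 CPM in OFF, 42.0 and 32.3 CPM in ON, and 22.8 and 19.8 CPM in WT, and was called higher in both OFF (adjusted p = 0.0366) and ON (adjusted p = 0.0213) than in WT, calls that ended in 7 and 3 of 15 alternatives. Tnf, Lta and Csf2 were not called in any comparison. Without OFF 2, WT 1 or WT 2, 0 of the 7 were called between OFF and WT (4 before adjustment with all libraries), and limma-voom also called 0.

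**Figure D4:**
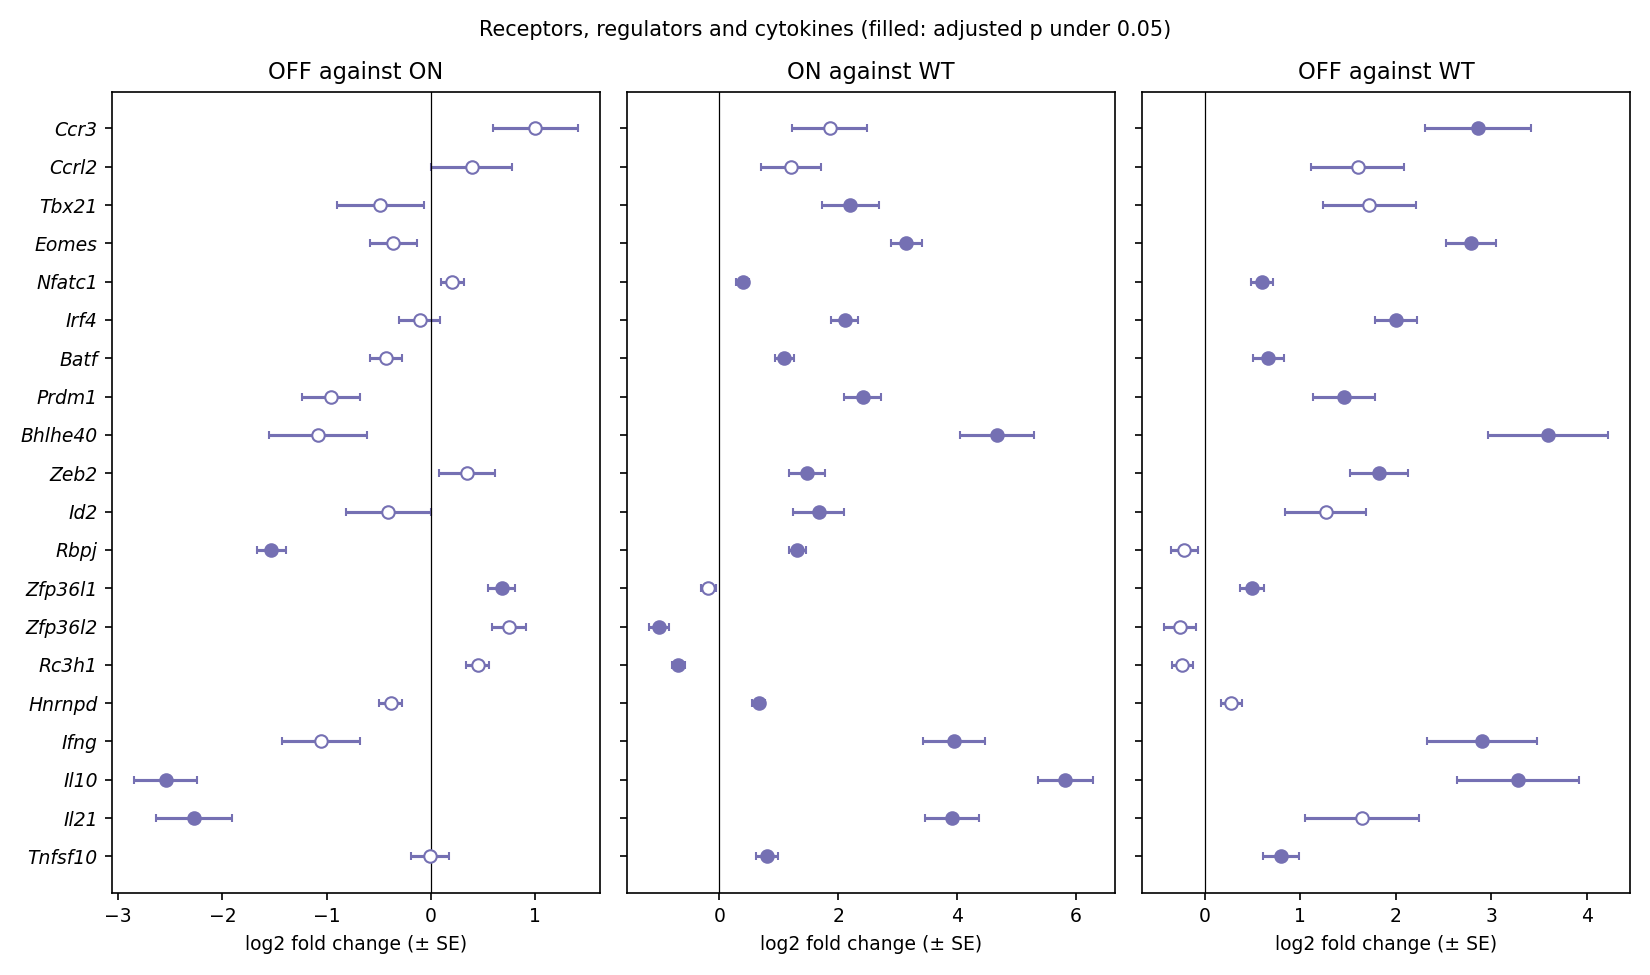
Log2 fold changes with their SE for receptors that passed the filter and for transcription factors, mRNA decay factors and cytokines called in at least 1 comparison, filled where the adjusted p was under 0.05. Most transcription factors drawn lie right of 0 against WT in both RBPJind groups. The choice of called genes favours this, since no transcription factor was called lower against WT. Among the decay factors, Zfp36l2 (-1.01) and Rc3h1 (-0.69) are filled and lie left of 0 for ON against WT. Between OFF and ON the filled points are Rbpj, Zfp36l1, Il10 and Il21.

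Genes most like the 4 members over the 6 libraries, by Pearson r of log2(CPM + 0.5) with their mean profile, were Entpd1 (r = 1.00), Bhlhe40, Metrnl, Slamf7, Cep55, Kif15, Gzmb and Chsy1 (r = 0.997 for the last). They were picked from 630 protein-coding genes with a mean of at least 1 CPM and a range of at least 2 log2 units. This profile includes Xcl1, which was high in ON 1 and low in ON 2, and all 8 genes were higher in ON 1 than in ON 2. With the profile of Ccl3, Ccl4 and Ccl5 alone, a choice made after seeing the values, the genes were Baiap3 (r = 0.996), Themis2, Maf, Nectin1, Havcr2, Lad1, I830077J02Rik and Cd22 (r = 0.992). Maf, a transcription factor, stood at 29.1 and 43.0 CPM in OFF, 90.8 and 74.7 CPM in ON, and 11.2 and 10.8 CPM in WT, and Havcr2, the checkpoint receptor Tim-3, at 5.03 and 9.13, 26.9 and 16.5, and 0.897 and 0.581 CPM in OFF, ON and WT.

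Libraries held 17025551 to 19319183 gene counts, and markers of the sorted cells were present throughout, with Cd4 between 604 and 702 CPM and Cd3e between 307 and 427 CPM. In bulk RNA, fewer cells that make a gene and less of its RNA in each cell cannot be told apart. Markers of memory and effector T cells moved with the chemokines between the gates. Their 7 genes summed to 360 and 726 CPM in OFF, 568 and 414 CPM in ON, and 156 and 105 CPM in WT; 6 were called higher in OFF than in WT and 5 in ON than in WT (4.70% and 9.68% of all tested genes were), with limma-voom 2 and 4, and 0 between OFF and ON (3 before adjustment; DESeq2 and limma-voom also called 0). Leaving out single libraries gave 1 (WT 2) to 6 genes for OFF against WT, with 2 without OFF 2 and 3 without ON 2 or WT 1, and 2 (ON 1, ON 2 or WT 2) to 6 for ON against WT, with 3 without WT 1. OFF 2, where Ccl3, Ccl4 and Ccl5 were above OFF 1, also had the highest sum of these markers, and the most abundant of them was Itgb1, at 145 and 344 CPM in OFF, 139 and 96.1 CPM in ON, and 71.4 and 50.0 CPM in WT. The marker sum does not include Ccl5. Ccl5 CPM equalled 16.1% and 12.5% of that sum in OFF, 47.2% and 61.4% in ON, and 5.27% and 3.32% in WT. The part of such cells in the chemokine levels was not tested.

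Regulatory T cell markers were also present despite the CD25- gate: Foxp3 stood at 36.6 and 78.7 CPM in OFF, 38.0 and 30.8 CPM in ON, and 2.45 and 2.67 CPM in WT, and 3 of 3 such markers were higher than WT in OFF and in ON, 2 of 3 without WT 1 or WT 2. Ikzf2 (Helios) was the most abundant of them, at 107 and 219 CPM in OFF, 109 and 55.1 CPM in ON, and 8.19 and 6.63 CPM in WT. Over all tested genes, the shares called higher than in WT were 4.70% in OFF and 9.68% in ON, the background for each count in this paragraph. Markers of cells outside the gate were low but moved too. Monocyte and macrophage markers, which matter because such cells make Ccl3 and Ccl4, summed to 26.3 and 40.8 CPM in OFF, 27.5 and 25.0 CPM in ON, and 14.0 and 14.0 CPM in WT (8 genes, 1 of 7 tested higher in OFF and 2 in ON than in WT). The highest sum was that of OFF 2, and the most abundant gene was Lyz2, at 16.2 and 25.8 CPM in OFF, 13.1 and 13.7 CPM in ON, and 6.28 and 7.44 CPM in WT. Monocyte calls numbered 0 for ON without ON 1, WT 1 or WT 2, 1 without ON 2, and for OFF 0 without WT 1 and 2 without OFF 1. Dendritic cell markers summed to 43.0 and 35.9 CPM in OFF, 32.6 and 41.2 CPM in ON, and 8.19 and 5.41 CPM in WT, with 3 of 5 higher than WT in each of OFF and ON. Those calls numbered 1 for ON without WT 2, 2 for ON without WT 1, and 2 for OFF without OFF 1, OFF 2, WT 1 or WT 2, and Itgax, which was highest in ON at 18.8 and 16.2 CPM, kept its calls in every alternative. B cell markers summed to 14.4 and 24.5 CPM in OFF, 11.8 and 9.71 CPM in ON, and 3.35 and 3.02 CPM in WT, with 4 of 4 higher in OFF and 3 of 4 in ON than in WT. B cell calls numbered 1 for OFF without OFF 2, WT 1 or WT 2, and for ON 0 without WT 1 or WT 2 and 2 without ON 1 or ON 2; Ms4a1, a B cell surface protein, was among them.

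Natural killer cell markers summed to 9.88 and 17.9 CPM in OFF, 34.9 and 12.0 CPM in ON, and 11.7 and 5.17 CPM in WT, of which Gzma was 26.3 CPM in ON 1. Of 5 tested, Gzma and Tyrobp were called higher in ON than in WT, and Tyrobp in OFF. The median log2 fold change of the 5 was -0.54 for ON against WT and 0.48 for OFF against WT. For ON against WT, DESeq2 called 2 of the 5 up and 1 down. The defining marker Ncr1 had at most 18 counts in a library. The CD8 chains Cd8a and Cd8b1 summed to 14.2 and 18 CPM in OFF, 18.1 and 23.7 CPM in ON, and 14.4 and 13.8 CPM in WT, and innate-like T cell markers to 17.7 and 22.1, 33.9 and 18.4, and 9.93 and 8.26 CPM in OFF, ON and WT. Cd8a was called higher than in WT in ON (log2 fold change 2.75 ± 0.41, adjusted p = 0.00322) and in OFF, and Cd8b1 was not. Of 5 tested innate-like markers, ON against WT gave 4 higher and 1 lower and OFF against WT 2 higher. Trdc, the constant chain of gamma delta T cells, was among them. As background for the counts in this paragraph, ON against WT called 9.68% of all tested genes up and 5.16% down. For OFF against WT these shares were 4.70% and 2.14%. Without WT 1 or WT 2 the natural killer calls numbered 0 in both comparisons, and the innate-like calls at most 1 for ON and 0 for OFF; without ON 1 there were 3 innate-like calls for ON, without OFF 2 there were 0 innate-like and 0 CD8 calls for OFF, and Cd8a also lost its call for OFF without WT 1. Without ON 1 there were 2 natural killer calls for OFF. Neutrophil markers, with Csf3r the most abundant, summed to at most 1.74 CPM and mast cell markers to at most 0.538 CPM, and of the platelet markers, led by Itga2b, Gp1bb had 0 counts in every library. Markers of naive T cells, led by Tcf7, summed to between 2794 and 3685 CPM in all libraries, and of these Il7r was lower than in WT in OFF (log2 fold change -1.05 ± 0.18, adjusted p = 0.0101; 2.14% of tested genes were called lower) and in ON (-1.23 ± 0.18, adjusted p = 0.00302), the call for OFF ending without WT 1. What these cells add to the chemokine levels was not tested.

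**Figure D5:**
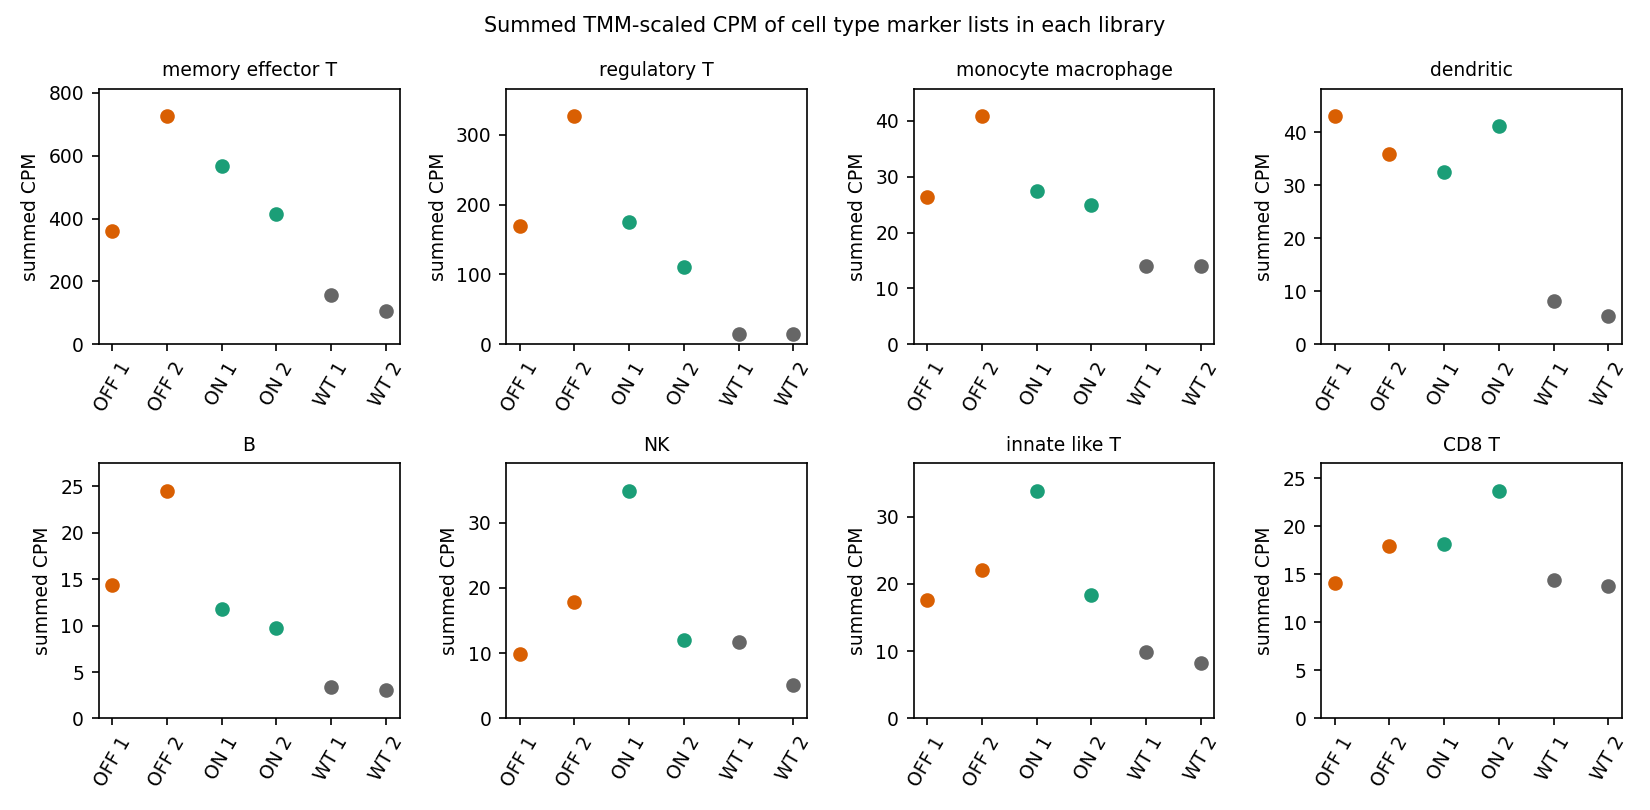
Summed TMM-scaled CPM of 8 cell type marker lists in each library. Memory and effector T cell, regulatory T cell, monocyte and macrophage, dendritic cell and B cell sums are higher in the OFF and ON libraries than in the WT libraries, and only the CD8 and the natural killer and innate-like sums reach their top in an ON library. Gzma alone is 26.3 of the 34.9 CPM of the natural killer sum in ON 1.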

How the data were processed

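Total RNA was sequenced on an Illumina NovaSeq with GRCm38 as the genome, per the labels, and R 3.6.2 and edgeR appear in the submitters' processing notes. No aligner, counting program, strand setting or annotation release is given in the sources used here. Raw counts per Ensembl gene were deposited by the authors; the 5 summary rows of that table, 53.1% to 66.3% of its reads, stayed out of library sizes. GENCODE M21 matched 47310 of 47729 identifiers. Counts were filtered by filterByExpr (minimum count 10, total 15), scaled by TMM and tested with edgeR 4.0.16 (R 4.3.3, robust quasi-likelihood, 6 libraries in 1 fit, 3 residual degrees of freedom, Benjamini-Hochberg over 15780 genes, called at 0.05). The 3 comparisons share libraries, so their calls are not independent. Counting intervals are exact Poisson, or exact binomial for ratios. The chemokines and the 20 gene lists were chosen with earlier results of these data known. Named were, besides the 4 genes, all receptors, called or most abundant members of the gene lists, the most abundant gene of each marker list, neighbours, and the 8 most alike genes; 1 listed gene is not reported here. Alternatives used limma 3.58.1 and DESeq2 1.42.0. On simulated counts with 200 changed genes of 15780, the test found 77.7% of genes with a log2 change of 2 for OFF against ON, 80.7% for ON against WT and 76.0% for OFF against WT, with 8.24%, 8.88% and 8.51% of calls false.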

Additional observations from a re-analysis of the deposited data

How the results depend on the processing

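For OFF against WT, the calls of Ccl4 and Ccl5 and the lack of a call for Xcl1 held under every alternative that gave a value; with a mean CPM of at least 1, Xcl1 was not tested. Leaving out 1 library, the log2 fold change lay between 5.33 and 9.51 for Ccl4, 3.21 and 4.42 for Ccl5, 1.89 and 2.31 for Xcl1, and 4.67 and 6.49 for Ccl3. Ccl3 lost its call without WT 1 or WT 2 and with limma-voom (5.30). Genes called between OFF and ON numbered 162, against 506 with DESeq2, 58 with only the 4 libraries of that comparison and 67 (without WT 2) to 619 (without ON 1) with a library left out. Between ON and WT 2342 were called (1527 higher and 815 lower, against 1272 and 1091 with upper-quartile scaling), and 368 (without WT 2) to 2398 with a library left out. Between OFF and WT 1078 were called, against 584 with limma-voom and 223 (without WT 1) to 1601 (without ON 1) with a library left out. With a replicate block these counts were 60, 1441 and 663, and Ccl3, Ccl4 and Ccl5 kept their calls. The labels do not say whether replicate numbers pair the samples. Deviations of same-numbered libraries correlated at -0.20 (OFF with ON), 0.08 (ON with WT) and -0.21 (OFF with WT), which does not settle it. A crossed replicate block, chosen after seeing the data, called 1210, 3754 and 2083 genes. The causes were not tested. Of 55 calls of named list genes and Heatr9, 17 held under all alternatives, and no called gene changed sign.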
